A study of Mus musculus with 12 samples.

Results

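The genes described here are 10 members of the Notch pathway in mouse mammary epithelial cells: the receptors Notch1, Notch2, Notch3 and Notch4, the ligands Jag1, Jag2 and Dll1, and the transcription factors Hes1, Hey1 and Hey2, which are textbook targets of Notch signalling. They were chosen by gene symbol, taking every probe set whose platform annotation gave exactly 1 of these symbols, which yielded 18 of the 45101 probe sets on the array. The cells came from female FVB/N mice, an inbred strain. In the p190B group, 6 arrays, the mice carried MMTV-rtTA, a doxycycline-dependent activator driven by a mammary epithelial promoter, together with a TetO-p190B-IRES-luciferase transgene. In the control group, also 6 arrays, they carried the MMTV-rtTA transgene only. Mice of both groups ate chow containing 2 g/kg doxycycline. Feeding began when they were 5 weeks old and lasted 7 days, and cells were isolated at 6 weeks, so the controls share the activator and the drug but not the p190B construct. p190B is a GTPase-activating protein encoded by Arhgap5. The comparison asks which transcripts differ in epithelial cells with ectopic p190B. The labels call the arrays biological replicates, and the sources used here do not say whether animals were pooled.

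Notch receptors are single-pass membrane proteins that are activated by Jagged or Delta-like ligands on a neighbouring cell. Ligand binding exposes the receptor to cleavage by an ADAM protease and then by gamma-secretase, and the freed intracellular domain enters the nucleus, joins the DNA-binding protein RBPJ and switches on genes of the Hes and Hey families. In the mammary gland the pathway is known for its part in the choice between luminal and basal fate, and Notch4 was found as a site where mouse mammary tumour virus inserts. Notch4 is also known as a receptor of endothelial cells and Notch3 as a receptor of pericytes and vascular smooth muscle, besides its place in luminal progenitors.

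Values are linear microarray intensities, used as log2(intensity + 16), and differences are p190B minus control on that scale. Median intensities ran from 187.6 to 211.5 over the 12 arrays, whose number sets the precision. Epithelial markers were present on all arrays: 12 of 12 luminal markers on the array passed the filter on low values, with no value under 1671 units. So did 10 of 10 basal markers, with values down to 145 units. Markers of other cells passed it too, 12 of 12 for endothelium, 6 of 6 for pericytes, 8 of 8 for fibroblasts and 10 of 10 for lymphocytes. The mean log2 value of the lymphocyte markers ran from 7.14 to 10.57 in control and from 6.72 to 10.66 in p190B, so the preparations differed widely in these transcripts within each genotype. The 3′ over 5′ ratios of the control transcripts, a sign of RNA quality, ran with genotype. For Gapdh the log2 ratio lay between −0.516 and −0.470 in control and between −0.478 and −0.318 in p190B, with 5 of 6 p190B arrays above every control. For Actb it lay between 0.252 and 0.349 in control and between 0.307 and 0.587 in p190B, highest on p190B replicates 3 (0.587) and 1 (0.483). Arhgap5, the gene of the transgene, was read by 4 probe sets with log2 differences from −0.32 to 0.41, and 0 of them passed the limma test over all probe sets (smallest adjusted p 0.258), so the groups are known by their labels. Probe set 1423194_at was higher and 1450896_at lower at an unadjusted limma p under 0.05 (0.00268 and 0.0356), and which of them can read the transgene is not known here.

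None of the 10 Notch genes passed the test between p190B and control cells. Of the 18 probe sets, 15 lay above the filter on low values (mean log2 value at or above the 40th percentile, about 101 units) and were tested, at least 1 for each gene. By limma, with Benjamini-Hochberg adjustment over all 27022 tested probe sets, 0 of these 15 passed an adjusted p of 0.05, and 0 had an unadjusted p under 0.05. Over all tested probe sets 10 passed (0.037%; 0.0037% higher and 0.0333% lower in p190B), and 9.32% had an unadjusted p under 0.05 (4.51% higher, 4.81% lower). The smallest adjusted p among the 15 was 0.667, for Hey2. With each gene read by its brightest probe set, 4 differences were above 0 and 6 below, and their median was −0.01 beside 0.02 over all tested probe sets. The intensities of the groups overlapped for 15 of 15 probe sets, where 0.877% of all tested probe sets had groups that did not overlap. With the Actb ratio as a covariate 2 of 15 probe sets, the brightest of Jag1 and of Hey2, had an unadjusted limma p under 0.05. In that fit 3393 of all 27022 tested probe sets did. Without p190B replicates 1 and 3 the Hey2 probe set had such a p, beside 3226 of the 27022. For Notch1 the ratio of Actb or Gapdh as a covariate gave −0.12 in both fits, and for Notch4 −0.35 in both (limma adjusted p from 0.597 to 0.858). For 8 of the 10 genes, Notch4 and Hey2 excepted, the sign of the difference turned under at least 1 other setting or without a single array.

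**Figure D1:**
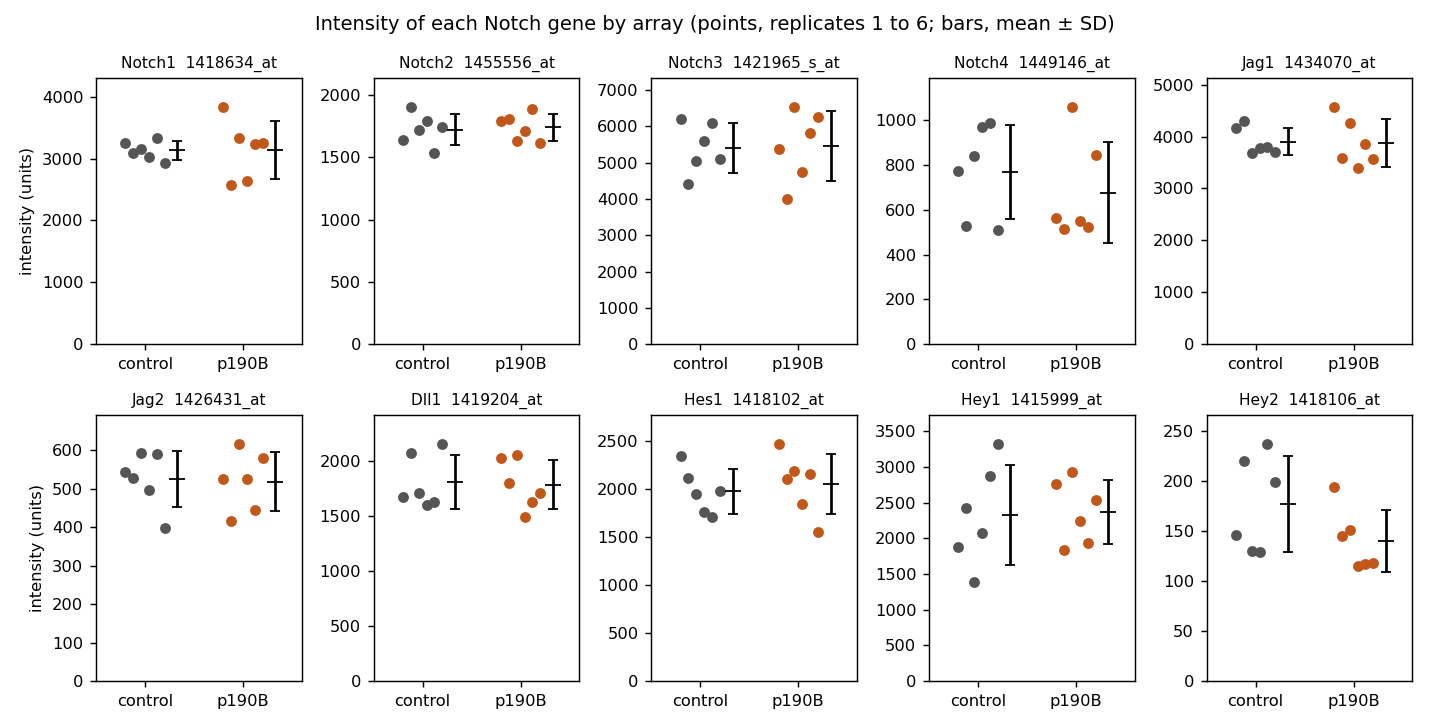
Intensity in linear units of the brightest probe set of each of the 10 Notch genes, 1 panel a gene with the vertical axis from 0; points are the 6 control and 6 p190B arrays in order of replicate number, and bars give the mean ± SD. Control and p190B points overlap in all 10 panels, and Notch4 shows a gap between 562 and 776 units that cuts across both genotypes.

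Among the receptors, Notch2 was the steadiest and Notch4 the most variable from array to array. Notch1, read by its brightest probe set 1418634_at, ran from 2922 through a median of 3127 to 3340 units in control and from 2580 through 3243 to 3836 in p190B. The p190B arrays held both the highest and the lowest values, with replicate 1 above and replicates 2 and 4 below all controls, around nearly equal means of 3133 ± 152 (SD, n = 6) and 3145 ± 469 (SD, n = 6). The log2 difference was −0.01 (SE 0.09, 95% interval −0.20 to 0.19). The second Notch1 probe set, 1418633_at, gave 0.01 (SE 0.15) and followed the first across arrays with r = 0.902 over 12 arrays, as a description.

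Notch2, the receptor needed in the kidney, the liver and marginal zone B cells, ran by probe set 1455556_at from 1537 through a median of 1733 to 1904 units in control and from 1611 through 1753 to 1885 in p190B. All 6 p190B arrays lay inside the control range. The difference was 0.02 (SE 0.07, interval −0.13 to 0.16). Its SD over the 12 arrays was 0.093 on the log2 scale, and 95.1% of all tested probe sets had a larger one. The other Notch2 probe set, 1451889_at, lay between 20.8 and 111.8 units, below the filter, and was not tested in the main comparison.

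Notch3 was read by 1421965_s_at and 1421964_at. By the brighter, 1421965_s_at, it ran from 4404 through a median of 5345 to 6189 units in control and from 4010 through 5605 to 6532 in p190B. The p190B arrays spread beyond the controls on both sides, 2 above and 1 below. The difference was 0.00 (SE 0.12, interval −0.25 to 0.26), and the second probe set gave −0.03 (SE 0.13). The probe sets correlated with r = 0.826 over the 12 arrays.

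Notch4 was read above the filter by 1449146_at alone. It ran from 509 through a median of 808 to 988 units in control and from 516 through 556 to 1060 in p190B, so each genotype held both low and high arrays. The control mean was 768 ± 209 and the p190B mean 676 ± 225 (SD, n = 6 each). Their log2 difference was −0.19 (SE 0.21, interval −0.64 to 0.26, limma adjusted p 0.843). The interval reaches from a fold of 0.641 to 1.20. Without p190B replicate 3 alone the difference was −0.33. Its SD over the arrays, 0.412, was exceeded by 10.03% of all tested probe sets. The other Notch4 probe sets, 1436901_at and 1456263_at, did not rise above 101.2 units on any array.

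The log2 differences of the ligands' brightest probe sets were all −0.02, and they were more negative with the 3′ over 5′ ratios as covariates. The ratios ran with genotype, so such fits can hardly separate ratio from genotype. Differences from them, here and for the other genes, are given without an SE. Jag1, the ligand best known from Alagille syndrome in humans, ran by 1434070_at from 3677 through a median of 3793 to 4296 units in control and from 3393 through 3722 to 4571 in p190B. In p190B, 1 array lay above and 3 below all controls. The difference was −0.02 (SE 0.08, interval −0.18 to 0.15), and adding the 3′ over 5′ ratio of Gapdh or of Actb as a covariate gave −0.17 and −0.16 (limma adjusted p 0.768 and 0.384). The other Jag1 probe sets, 1421106_at and 1421105_at, gave −0.09 (SE 0.14) and 0.04 (SE 0.14), and across arrays they followed the brightest with r = 0.693 and 0.292.

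Jag2 ran by 1426431_at from 398 through a median of 536 to 594 units in control and from 416 through 526 to 618 in p190B. The ranges nearly coincided, with 5 of 6 p190B arrays inside the control range. The difference was −0.02 (SE 0.12, interval −0.28 to 0.24), while the other probe set 1426430_at gave 0.13 (SE 0.19), and they correlated with r = 0.799 over the arrays. With the Actb or the Gapdh ratio as a covariate the brighter gave −0.12 and −0.16 (limma adjusted p 0.774 and 0.864). Dll1, a Delta-like ligand described in mammary basal cells, ran by 1419204_at, its only probe set, from 1595 through a median of 1687 to 2154 units in control and from 1490 through 1750 to 2051 in p190B. Its difference was −0.02 (SE 0.10, interval −0.23 to 0.20), and with the Actb or the Gapdh ratio as a covariate it was −0.19 and −0.15 (limma adjusted p 0.463 and 0.845).

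Of the target genes, Hey2 had the widest difference of all 10, and it did not pass. Hes1, a basic helix-loop-helix repressor, ran by 1418102_at from 1708 through a median of 1968 to 2345 units in control and from 1555 through 2132 to 2476 in p190B. The p190B arrays again reached past the controls at both ends, by 1 array each. The difference was 0.05 (SE 0.11, interval −0.19 to 0.28), and it was −0.15 with the Gapdh ratio and −0.10 with the Actb ratio as a covariate. Hey1, a related repressor, ran by 1415999_at from 1389 through a median of 2250 to 3327 units in control and from 1835 through 2383 to 2926 in p190B. All p190B arrays lay within the control range, and within the control group alone the highest array was 2.40 times the lowest. The difference was 0.06 (SE 0.19, interval −0.34 to 0.46).

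Hey2, the third of these repressors and known for its role in arterial and heart development, ran by 1418106_at from 129 through a median of 173 to 238 units in control and from 115 through 131 to 194 in p190B. In p190B, 3 of 6 arrays (replicates 4, 5 and 6) lay below every control and none above the highest control. The control mean was 177 ± 48.0 and the p190B mean 140 ± 30.6 (SD, n = 6 each). The difference was −0.29 (SE 0.18, interval −0.68 to 0.10), with a limma adjusted p of 0.667, and 8.30% of all tested probe sets had a larger difference in either direction. It was −0.55 with the Gapdh ratio and −0.47 with the Actb ratio as a covariate (limma adjusted p 0.749 and 0.392), and −0.20 without control replicate 5.

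**Figure D2:**
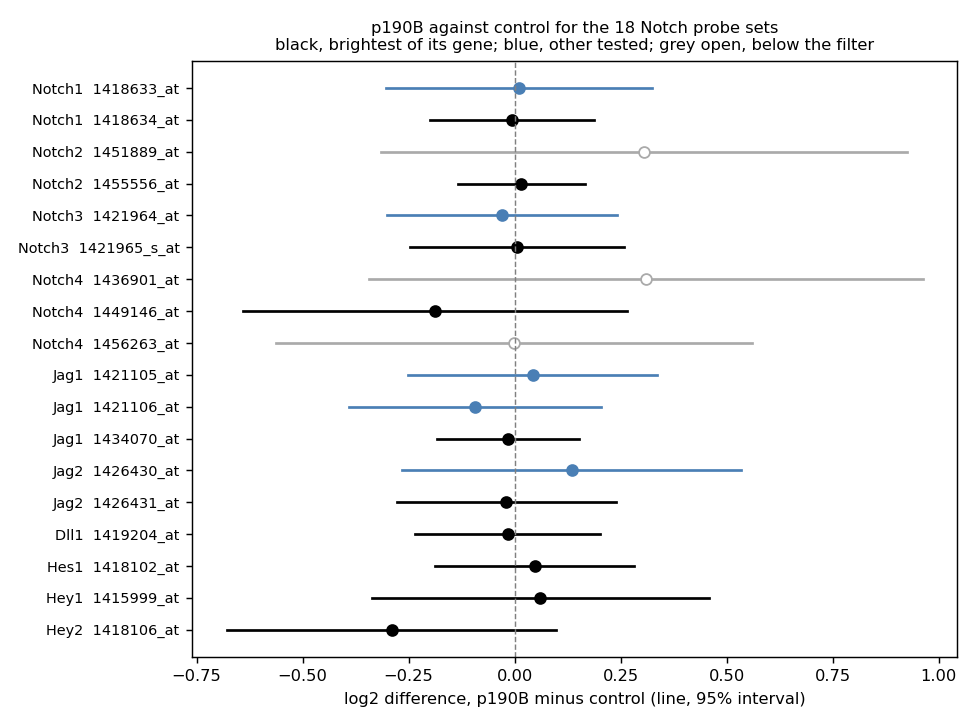
Log2 difference, p190B minus control, for all 18 Notch probe sets with 95% intervals from limma; black points are the brightest probe set of a gene, blue points other tested probe sets and open grey points probe sets below the filter, taken from the fit without a filter. All 18 intervals include 0, with Hey2 at −0.29 and Notch4 (1449146_at) at −0.19 farthest below it among the tested ones.

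The start region of Hey2 is shown because this gene had the widest difference among the members and because its promoter was the only one of the 8 matched members to hold the sequence that RBPJ is known to bind, searched as GTGGGAA on either strand (TTCCCAC on the printed strand). The window is chr10:30842774-30843033 on the minus strand of GRCm38.p6, from RefSeq, and runs from 250 bases before the transcription start to 10 bases after it. Capitals mark the 2 matches, which begin 207 and 4 bases before the start, the second one lying across it.
Hey2: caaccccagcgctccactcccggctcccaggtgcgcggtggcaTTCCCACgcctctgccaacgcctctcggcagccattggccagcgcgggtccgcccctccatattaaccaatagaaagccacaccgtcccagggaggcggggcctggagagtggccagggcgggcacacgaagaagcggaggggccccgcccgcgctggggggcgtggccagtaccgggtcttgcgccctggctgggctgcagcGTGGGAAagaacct
Of 32851 promoter windows of the same length, 5.58% held at least 1 match and 0.186% held 2 or more. Promoters of 8 of the 10 members were matched (Hes1 and Hey1 were not), and the windows of Notch1, Notch2, Notch3, Notch4, Jag1, Jag2 and Dll1 had no match to these letters. A match describes the letters of this window and not binding.

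The rest of the pathway was read from 7 lists of 61 genes, of which 57 had a probe set of their own and 51 were tested, each by its brightest probe set. None of the 51 passed the limma test in either direction beside 0.037% of all tested probe sets, 1 was higher and 3 lower at an unadjusted p under 0.05 (4.51% and 4.81% of all tested probe sets), and their median difference was 0.04. Groups overlapped for 51 of 51, where 0.877% of all tested probe sets had groups that did not overlap. Mib1, the ubiquitin ligase that lets ligand-bearing cells take up and pull on the ligand, gave the smallest p. It ran from 2546 through a median of 2970 to 3511 units in control and from 2084 through 2362 to 2603 in p190B, with 4 of 6 p190B arrays below every control. The log2 difference was −0.32 (SE 0.09) with a limma adjusted p of 0.250. Its other tested probe sets gave −0.19 (SE 0.13) and −0.08 (SE 0.15).

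The other 11 tested genes of the endocytosis and ubiquitin ligase list, which includes the Notch inhibitor Numb (−0.03, SE 0.09), ran up to 0.27. The cleavage protease list held both ADAM enzymes that cut the receptor, whose brightest probe sets had opposite signs. Adam10 gave −0.14 (SE 0.06), with a control mean of 14785 ± 844 units and a p190B mean of 13454 ± 1154 (SD, n = 6 each), and its other probe sets gave −0.24 (SE 0.08) and −0.17 (SE 0.14). Adam17 gave 0.14 (SE 0.06) by its brightest probe set, with 5 of 6 p190B arrays above every control, while its other probe sets gave −0.21 (SE 0.10) and 0.01 (SE 0.07). The limma adjusted p was 0.50 for Adam10 and 0.457 for Adam17. Subunits and partners of gamma-secretase in the list, Psen2, Ncstn, Aph1a, Aph1b and Psenen, ran from −0.03 to 0.14.

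In the remaining lists no gene passed either. Among 10 tested further targets, Cdkn1a, a cyclin-dependent kinase inhibitor, gave −0.18 (SE 0.06, limma adjusted p 0.406), with 4 of 6 p190B arrays below every control, and its second probe set gave 0.21 (SE 0.16). The median of that list was −0.07, with 4 differences above 0 and 6 below. Cntn1, a noncanonical ligand, gave 0.07 (SE 0.21) as the smallest p of 3 tested other ligands, and Pofut1, which adds the O-fucose that receptors need, 0.11 (SE 0.08) among 5 glycosylation enzymes. Kat2b, an acetyltransferase, gave 0.09 (SE 0.07) among 6 genes of the nuclear complex, where Rbpj itself gave 0.08 (SE 0.08), and the histone deacetylase Hdac1 gave −0.12 (SE 0.09) among 7 corepressors.

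**Figure D3:**
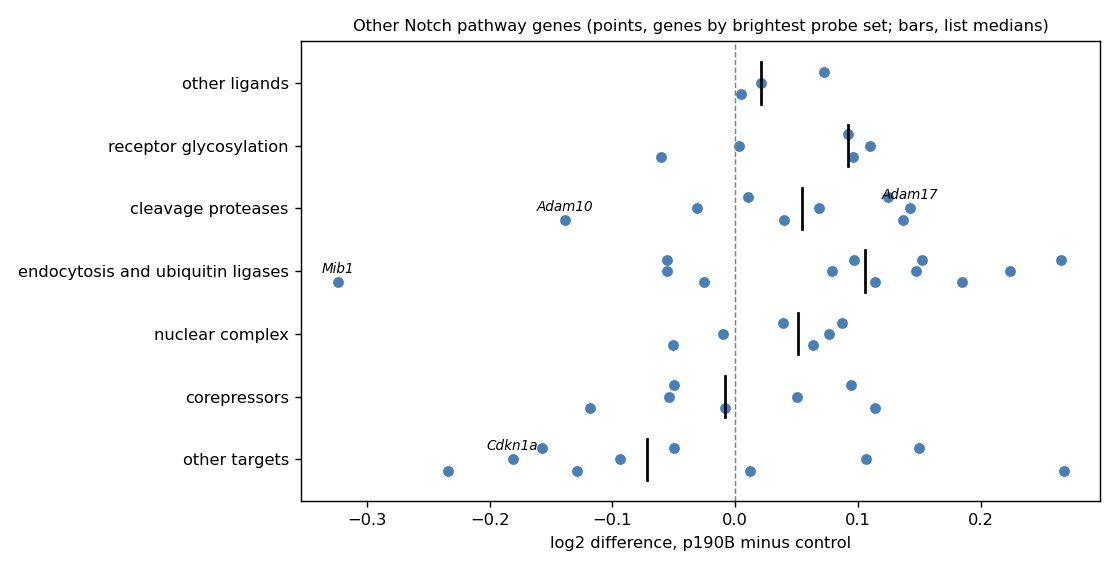
Log2 difference, p190B minus control, of 51 tested Notch pathway genes other than the 10 members, 1 row a list and 1 point a gene by its brightest probe set, with black bars at list medians and names on the 4 genes with an unadjusted limma p under 0.05. List medians lie between −0.07 (other targets) and 0.11 (endocytosis and ubiquitin ligases), and the point farthest from 0 is Mib1 at −0.32.

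Within each genotype Notch4 fell on either side of a gap. In control replicates 1 to 6 it was 775.8, 527.5, 839.2, 968.8, 987.7 and 509.3 units, and in p190B replicates 1 to 6 it was 562.1, 516.3, 1060.0, 550.8, 523.7 and 845.8. The gap between 562.1 and 775.8 units took up 0.439 of the log2 range and left 2 control and 4 p190B arrays below it and 4 control and 2 p190B arrays above it. No other member had a gap over 0.4 of its range with at least 3 arrays on each side, a rule set after the values were seen. Hey2 (0.344) and Dll1 (0.319) came nearest with that many arrays on each side, both with 8 arrays below the gap and 4 above. How many of all tested probe sets meet the rule was not computed, so the gap describes these arrays only.

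Endothelial and pericyte markers also varied from array to array within a genotype. In control replicates 1 to 6 the mean log2 value of the 12 endothelial markers was 11.96, 11.53, 12.11, 12.14, 12.08 and 11.50, and in p190B replicates 1 to 6 it was 11.56, 11.66, 11.99, 11.90, 11.87 and 12.13. The mean of the 6 pericyte markers was 11.27, 10.83, 11.32, 11.50, 11.49 and 10.97 in control and 10.89, 10.82, 11.34, 11.10, 11.13 and 11.35 in p190B. In control, replicates 2 and 6 were the lowest for Notch4 and for both means. In p190B, replicates 3 and 6 were the highest for Notch4 and for both means. In such preparations fewer cells of a type and less RNA per cell cannot be told apart, and the part of vessel cells in the Notch4 signal was not tested.

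Because the arrays lie in separate sets by the gap rule, no correlation over all of them is given for Notch4. The relation across the gap was not tested. The sets were cut on the Notch4 values themselves, which narrows the range of Notch4 within each set. With 6 arrays in a set, a small r there does not show that Notch4 and a marker mean are unrelated. Every array above the gap had a higher endothelial mean (11.96 or more) than every array below it (11.90 or less). The pericyte mean was likewise 11.27 or more above the gap and 11.13 or less below it. Among the 6 arrays below the gap the correlation with the pericyte mean was r = 0.118 (exact permutation p = 0.810, Spearman's coefficient = 0.086, exact permutation p = 0.919, n = 6). Among the 6 above it it was r = 0.616 (exact permutation p = 0.222, Spearman's coefficient = 0.6, exact permutation p = 0.242, n = 6). For the endothelial mean r was 0.227 and 0.070 (exact permutation p = 0.665 and 0.865, Spearman's coefficient = 0.371 and 0.086, exact permutation p = 0.497 and 0.919, n = 6 each). The lowest p among 42 relations within the sets was that with the skeletal muscle mean above the gap, with r = 0.928 (exact permutation p = 0.0111, adjusted p = 0.466) and Spearman's coefficient = 0.943 (exact permutation p = 0.0167, adjusted p = 0.699, n = 6). Below the gap that r was 0.583 (exact permutation p = 0.175, n = 6). With Jag2 it was 0.832 below the gap (exact permutation p = 0.0417, adjusted p = 0.876, n = 6) and 0.206 above it. With Hey1 Spearman's coefficient was 0.886 above the gap (exact permutation p = 0.0333, adjusted p = 0.699, n = 6) and 0.086 below it. With the endothelial mean as a covariate the genotype difference of Notch4 was −0.14 (limma adjusted p 0.732).

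For the other 9 members, 144 relations were computed over the 12 arrays: 36 pairs of members, and 108 with the means of 10 marker lists and the Actb and Gapdh ratios. At an unadjusted permutation p under 0.05 there were 31, and 0 passed Benjamini-Hochberg adjustment over all 144 (smallest adjusted p 0.111 for Pearson's r and 0.0902 for Spearman's coefficient, two-sided permutation tests). Only some of the 31 are named below. No batch is given in the labels, so values within each genotype stand beside the pooled ones. Each r was also taken without the 2 arrays farthest from the median of the measure it was set against.

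Hey1 followed the luminal markers, with r = 0.794 (permutation p = 0.00232, adjusted p = 0.111) and Spearman's coefficient = 0.818 (permutation p = 0.00188, adjusted p = 0.0902). It was 0.799 within control and 0.871 within p190B, and 0.794 without the arrays farthest from the luminal median. Of all tested probe sets 0.529% had an r as high. Hey1 ran the other way to the macrophage markers (r = −0.656, permutation p = 0.0216, adjusted p = 0.201; Spearman's coefficient = −0.615, permutation p = 0.0372, adjusted p = 0.274), with r = −0.680 within control, −0.902 within p190B and −0.448 without the farthest arrays.

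Notch1 was lower where lymphocyte markers were higher, with r = −0.778 (permutation p = 0.00182, adjusted p = 0.111) and Spearman's coefficient = −0.832 (permutation p = 0.00137, adjusted p = 0.0902), −0.558 within control and −0.882 within p190B. Without p190B replicate 1 and control replicate 5, the arrays farthest from the median of the lymphocyte mean, r was −0.634. Of all tested probe sets 0.696% had an r as low. With the same list Jag1 gave r = −0.680 (permutation p = 0.0160, adjusted p = 0.192) and Spearman's coefficient = −0.671 (permutation p = 0.0202, adjusted p = 0.240), with r = −0.294 within control, −0.850 within p190B and −0.668 without the farthest arrays. Hey2 gave r = −0.700 (permutation p = 0.0133, adjusted p = 0.192) and Spearman's coefficient = −0.734 (permutation p = 0.00880, adjusted p = 0.211), with r = −0.893 within control, −0.745 within p190B and −0.511 without the same arrays. With the lymphocyte mean as a covariate the genotype difference of Hey2 was −0.29 (limma adjusted p 0.475).

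Hes1 ran against the Schwann cell markers, with r = −0.812 (permutation p = 0.00136, adjusted p = 0.111) and Spearman's coefficient = −0.846 (permutation p = 0.00102, adjusted p = 0.0902), −0.819 within control and −0.806 within p190B. Without p190B replicate 6 and control replicate 4 r was −0.636. The Schwann list rests on 4 genes of the 6 listed. Hes1 was 1555 units, its lowest value, on p190B replicate 6, where the Schwann mean was highest.

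Notch3 was higher where pericyte markers were higher, with r = 0.737 (permutation p = 0.00725, adjusted p = 0.174) and Spearman's coefficient = 0.713 (permutation p = 0.0116, adjusted p = 0.212). It was 0.769 within control, 0.831 within p190B and 0.504 without p190B replicate 2 and control replicate 2, the arrays with the least pericyte signal. Notch2 ran the other way to the same markers, with r = −0.669 (permutation p = 0.0198, adjusted p = 0.201), Spearman's coefficient = −0.678 (permutation p = 0.0194, adjusted p = 0.240) and r = −0.531 without those arrays. Within control it was −0.642 and within p190B −0.721. Neither relation was particular to pericyte markers. With the endothelial markers Notch3 gave r = 0.598 (permutation p = 0.0408, adjusted p = 0.225), 0.648 within control and 0.624 within p190B. Notch2 gave r = −0.597 with them (permutation p = 0.0439, adjusted p = 0.226). Notch3 with the adipocyte markers gave r = 0.577 (permutation p = 0.0491, adjusted p = 0.228).

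Dll1 was higher where basal markers were higher, with r = 0.735 (permutation p = 0.00690, adjusted p = 0.174) and Spearman's coefficient = 0.692 (permutation p = 0.0158, adjusted p = 0.240), 0.848 within control, 0.647 within p190B and 0.610 without the farthest arrays. It did so with the luminal markers too, with r = 0.691 (permutation p = 0.0141, adjusted p = 0.192), Spearman's coefficient = 0.636 (permutation p = 0.0291, adjusted p = 0.250) and r = 0.528 without the farthest arrays. Within control it was 0.906 and within p190B 0.506. Dll1 ran against the endothelial markers, with r = −0.695 (permutation p = 0.0138, adjusted p = 0.192) and Spearman's coefficient = −0.601 (permutation p = 0.0431, adjusted p = 0.274). That r was −0.973 within control, −0.319 within p190B and −0.449 without control replicates 2 and 6.

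Of the 36 pairs of members, 23 had an r above 0, and the median was 0.26. The highest was that of Notch1 with its ligand Jag1, with r = 0.740 (permutation p = 0.00541, adjusted p = 0.174) and Spearman's coefficient = 0.629 (permutation p = 0.0328, adjusted p = 0.262). It was 0.253 within control, 0.848 within p190B and 0.619 without p190B replicates 2 and 4. Within p190B both genes also went with the Actb 3′ over 5′ ratio, Jag1 at 0.854 and Notch1 at 0.598, against 0.703 and −0.272 within control. Over all arrays Jag1 with that ratio gave r = 0.614 (permutation p = 0.0299, adjusted p = 0.207) and Spearman's coefficient = 0.413 (permutation p = 0.185, adjusted p = 0.517), and r = 0.103 without p190B replicates 1 and 3. The part of RNA quality in the pair was not tested. Jag1 with Hes1 gave r = 0.715 (permutation p = 0.00940, adjusted p = 0.192) and Spearman's coefficient = 0.734 (permutation p = 0.00874, adjusted p = 0.211), 0.660 within control, 0.766 within p190B and 0.592 without p190B replicate 1 and control replicate 2. The lowest was that of Notch2 with Notch3, with r = −0.620 (permutation p = 0.0317, adjusted p = 0.207), Spearman's coefficient = −0.657 (permutation p = 0.0240, adjusted p = 0.240) and r = −0.494 without control replicates 2 and 5. Within control it was −0.852 and within p190B −0.473.

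**Figure D4:**
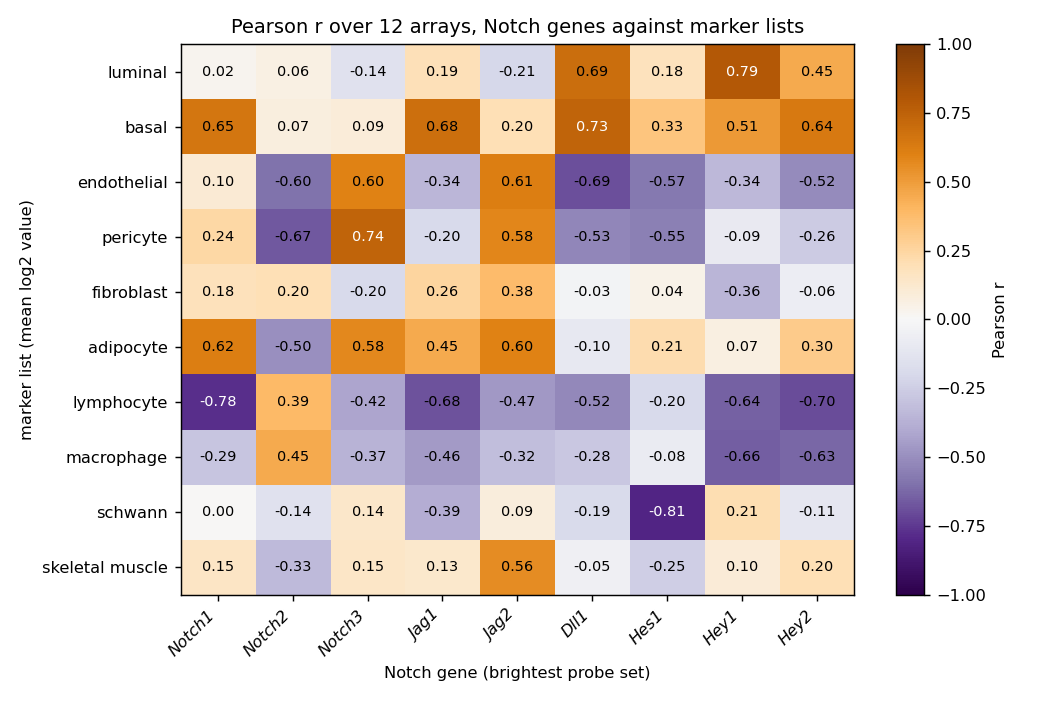
Pearson r over the 12 arrays between 9 Notch genes (columns, brightest probe set, log2 scale) and the mean log2 value of 10 marker lists (rows), with orange for r above 0 and purple for r below 0. The strongest cells are Hes1 with Schwann markers at −0.81, Hey1 with luminal markers at 0.79 and Notch1 with lymphocyte markers at −0.78. Notch4 is left out because its arrays form separate sets by a gap rule set after the values were seen.

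**Figure D5:**
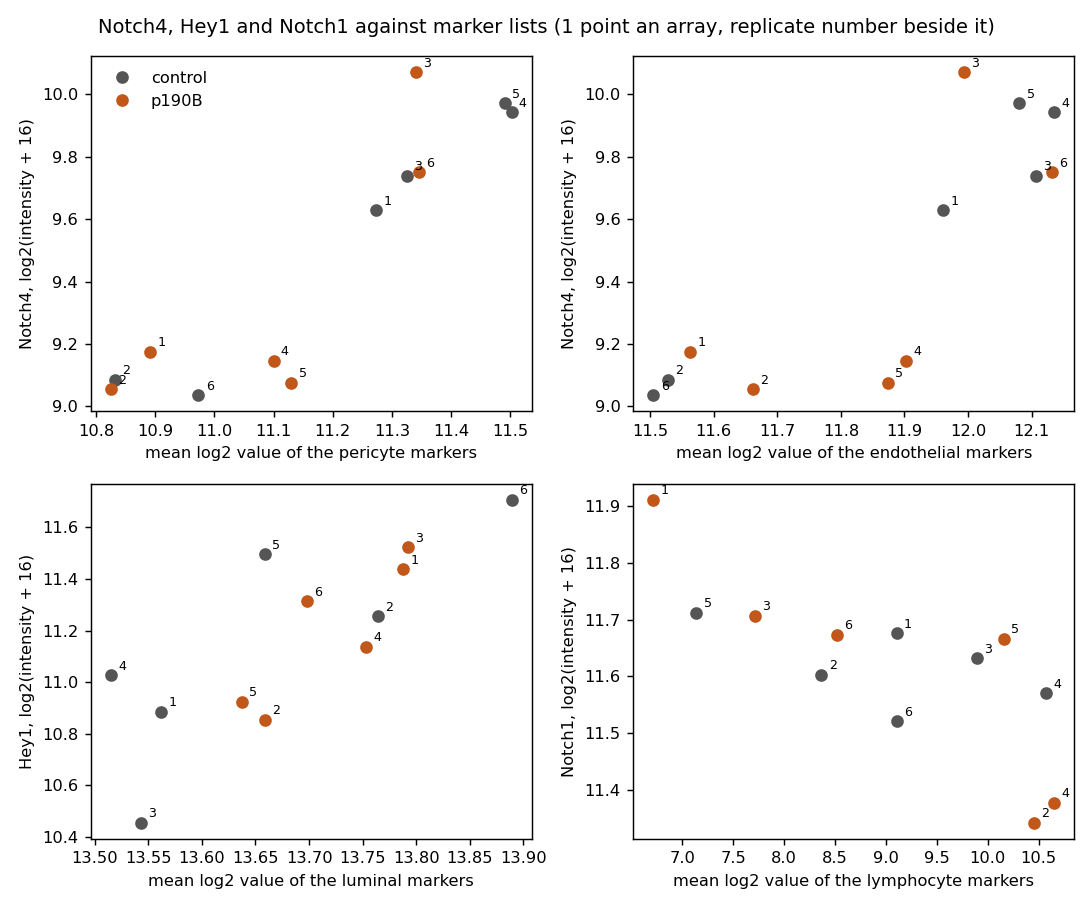
Log2 value of Notch4 against the pericyte and endothelial marker means (top), of Hey1 against the luminal mean and of Notch1 against the lymphocyte mean (bottom), 1 point an array, grey for control and orange for p190B, with replicate numbers. Notch4 values fall into a lower and a higher set of 6 arrays, each with both genotypes.

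The genes whose brightest probe set was most like each member over the 12 arrays were read from 12769 other named genes, as a description with no test. Spearman's coefficient for them ran from 0.678 (Gclc with Dll1) to 0.986 (Osbpl1a with Hey1). As the highest of 12769, these genes have a high r in part by selection. For Notch3 they included Mrvi1 (r = 0.950), a substrate of cGMP-dependent kinase in smooth muscle, Dock9 (r = 0.932) and Vwf (r = 0.931), the von Willebrand factor of endothelium. For Notch4 they were Hspg2, the basement membrane proteoglycan perlecan, Robo4, an endothelial guidance receptor, and Dysf, the membrane repair protein dysferlin. Their ranking used all 12 arrays, across the Notch4 gap. Within the arrays below and above the gap r was 0.273 and 0.819 for Hspg2, 0.598 and 0.954 for Robo4, and 0.502 and 0.665 for Dysf. Robo4 and Vwf are also on the endothelial list.

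Hey1 was most like Osbpl1a (r = 0.930), an oxysterol-binding protein, Svil (r = 0.913), the actin-binding supervillin, and Btn1a1 (r = 0.910), the butyrophilin of milk fat globules. Dll1 was most like Car8 (r = 0.933), Clca3a2 (r = 0.926) and Gclc (r = 0.925), the catalytic subunit of glutamate-cysteine ligase. Notch1 went with Ogfod1, Zfp839 and Sun1 (r from 0.917 to 0.950), Jag1 with Snx33, Zc3h18 and Ankrd11 (r from 0.934 to 0.943) and Hes1 with Plekhm1, Tcaf2 and Gpt (r from 0.906 to 0.940). Notch2 was most like Rps25, a ribosomal protein, Apod, apolipoprotein D, and Cyp27a1, sterol 27-hydroxylase (r from 0.865 to 0.908). Jag2 went with Uaca, Lhx6 and Ankrd6 (r from 0.873 to 0.900), and Hey2 with Ndfip2, Rnf2 and Rnps1 (r from 0.929 to 0.961).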

How the data were processed

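Per the labels' protocols, biotinylated cRNA from total RNA was hybridised to single-colour Affymetrix arrays. The deposited values are linear intensities, 1 per probe set and array, and the submitters' processing notes name MAS5; the sources used here give neither version nor scaling target. The 2% trimmed mean was 1000 on every array, so the authors had scaled the arrays to 1 level. The smallest values are noisy, and a fold on the log2(intensity + 16) scale understates changes of dim genes.

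The genotype comparison used two-sided limma tests (version 3.58.1 under R 4.3.3, with lmFit and a trended eBayes) on probe sets at or above the 40th percentile of the mean log2 value; the steps were tested on simulated data. Platform symbols were checked against RefSeq (GRCm38.p6) by Entrez ID, which changed 0. A gene was led by its brightest probe set. Named genes were all member probe sets, all Arhgap5 probe sets, from each pathway list those with an unadjusted p under 0.05 or else the smallest p, and the 3 genes most like each member. Numb, Rbpj and the gamma-secretase genes were chosen after their values were seen. Correlations used 100000 permutations, or all orders for 6 arrays. The members and lists were chosen with earlier results of these data known. Same-numbered arrays deviated together in 1 of 6 pairs (r from −0.287 to 0.408), so the numbers were not taken as pairs. Python 3.11.15 with matplotlib 3.10.9 made the figures.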

Additional observations from a re-analysis of the deposited data

Results flagged for a closer look

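Of 60 groups of 6 arrays examined (18 Notch probe sets, 10 marker lists and 2 control ratios in each genotype), 2 held an array far from the others, where chance gives about 1 in 20, and neither was a Notch probe set. The Schwann marker mean of p190B replicate 6 was 11.39 (log2) against 10.84 to 11.02 on the other p190B arrays. For Actb, the 3′ over 5′ ratio (log2) was 0.35 on control replicate 2 against 0.25 to 0.29 on the other control arrays.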

How the results depend on the processing

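Across 29 other settings and left-out arrays, 0 Notch member probe sets and 0 other pathway genes passed, and the smallest limma adjusted p of any member was 0.384 (Jag1, with the Actb ratio). At an unadjusted limma p under 0.05 there were 2 members with the Actb ratio (Jag1, Hey2), beside 3393 of all tested probe sets. Without p190B replicates 1 and 3 there was 1 member (Hey2, −0.43), beside 3226 of all tested probe sets. The count of all tested probe sets that passed the adjusted threshold was 10 as reported. It was 5 with no filter, 17 with a filter at the 60th percentile, 28 with quantile normalisation, 4 with equal medians, 3 without trend and 19 with array weights. It was 24, 32 and 19 with the lymphocyte, endothelial and basal means as covariates, 1 and 0 with the Actb and Gapdh ratios (1803 at an unadjusted p under 0.05 for Gapdh), 5 with p190B replicates 1 and 3 left out, 24 at an adjusted p of 0.10, and 4 to 9 without any single array (4 to 6 without control replicate 1, 3, 4, 5 or 6 or p190B replicate 2, 4 or 5). With the replicate number as a block it was 0 (2287 at an unadjusted p under 0.05), members staying at 0; 2 of 12 arrays correlated best with their own number.

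Of 293 single-gene values, 249 kept their sign and side of the threshold and 44 turned sign, none past the threshold. Turned values were, for Notch1, 4e-04 with quantile normalisation, 0.011 with the basal mean and 0.002 as the mean of its probe sets; for Notch2, −0.016 with equal medians; for Notch3, −0.027 with equal medians, −3e-04 with array weights, −0.070 with the Actb ratio, −0.065 with p190B replicates 1 and 3 left out and −0.012 as the mean of its probe sets; for Jag2, 0.057 as that mean; for Dll1, 0.0053 with the basal mean. For Hes1 they were −0.10 and −0.15 with the Actb and Gapdh ratios and −0.049 without those arrays, and for Hey1 −0.10 with the Actb ratio and −0.081 without those arrays. Without any single array, Notch1 ran from −0.066 to 0.048, Notch2 from −0.016 to 0.045, Notch3 from −0.052 to 0.090, Jag1 from −0.065 to 0.021, Jag2 from −0.095 to 0.039, Dll1 from −0.059 to 0.036, Hes1 from −0.0089 to 0.12 and Hey1 from −0.076 to 0.17. Notch4 and Hey2 stayed below 0 in every fit, from −0.35 to −0.11 and from −0.55 to −0.20; Hey2 was below the 60th percentile filter and has no value there. The cause of these shifts was not tested. MAS5 intensities carry no detection calls here, so dim probe sets have no stated background.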
